A study of Mus musculus with 2 samples.

Results

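The genes described here encode lysosomal proteins: hydrolases with their helper proteins, proteins of the lysosomal membrane, the proton pump and the transcription factor Tfeb. They are 33 named genes of the 27998 in the gene list of both matrices, found by symbol, and cathepsins are not among them. By role they are 9 lipid hydrolases and helpers, 7 sugar hydrolases, 2 other luminal proteins, 7 membrane proteins, 7 genes of the proton pump and 1 regulator. The pump is the vacuolar ATPase, called V-ATPase here.

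Lysosomes are acidic organelles in which enzymes break down lipids, glycans and proteins taken up from outside or delivered by autophagy. The V-ATPase pumps protons into the lumen, membrane proteins line and serve the organelle, and most soluble enzymes reach it through the mannose 6-phosphate tag. Microglia, the resident macrophages of the brain, clear debris and myelin and are rich in these genes. Tfeb and its relatives bind the CLEAR element, an extended E-box found near many lysosomal genes.

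RNA of single cells was counted in droplets (10x Genomics) after sorting CD11b+/CD45+ cells, a gate that microglia share with other myeloid cells, from brains of adult wild type C57BL/6J mice. The CD library pooled 4 mice that ate control diet for 19 days. The Repop D5 library pooled 6 mice given PLX5622, an inhibitor of the receptor Csf1r that depletes microglia, for 14 days, after which control diet was fed for 5 days. As each group is 1 pooled library, no test was made and the spread between mice is not known, and "higher" and "lower" below compare the Repop D5 library with the CD library.

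After a filter on genes and mitochondrial RNA, 609 of 609 CD barcodes and 553 of 585 Repop D5 barcodes were retained. They held 6055886 and 11037921 UMIs (unique molecular identifiers, 1 for each captured RNA molecule), with medians of 5982 and 16226 UMIs a cell. The lists share 1 barcode sequence. Levels are in CPM, the UMIs of a gene per 1000000 UMIs of the library, and a UMI is counted once per molecule, so no division by gene length was made. Of 10 microglia markers, 10 were measured, and together they had 27125 (CD) and 11615 CPM (Repop D5). Other cells were present too. Clusters named border macrophage-like, monocyte-like and neutrophil-like (numbers 4, 5 and 9) held 108, 29 and 42 CD cells against 0, 50 and 7 Repop D5 cells. The names rest on leading genes, and cluster 4 still had 26509 CPM of the microglia markers. Whether it also holds microglia was not tested. At a lower cluster resolution the border macrophage-like cluster held 203 CD cells. The 12 border macrophage markers summed to 1776 (CD) and 343 CPM (Repop D5), with 1 of them at 0 in Repop D5, and the 10 neutrophil markers to 13133 and 2102 CPM, with 1 of them at 0 in CD. The 12 division genes summed to 28.6 and 1164 CPM, and 8 genes that respond to dissociation to 5760 and 1278 CPM, and their part in the results was not tested. Values outside these clusters, over 430 CD and 496 Repop D5 cells, are given beside the members and lists whose calls or direction they change. These cells still had 2376 (CD) and 858 CPM (Repop D5) of neutrophil markers, and 917 and 268 CPM of border macrophage markers.

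Promoter sequence is shown first, because the E-box core CACGTG, the centre of the CLEAR element, stands near some of these genes and not near others. RefSeq promoter entries (GRCm38.p6, 250 bases before to 50 after the start site) were found for 29 of the 33 genes, and not for Asah1, Npc1, Atp6v1b2 and Atp6v1h. The core, which reads the same on both strands, lay in 9 of the 29 (31.0%) and in 8.09% of all 27025 genes with an entry. The longer letters GTCACGTG, which contain the core and were searched on both strands, lay in 7 of the 29 (24.1%) against 2.55% of all genes. A match describes letters and not a bound site. The 100 bases before the RefSeq start site, or before the GENCODE gene model where that begins earlier, follow for 3 genes with the core and for Arsb and Gusb, the hydrolase genes with the largest difference upwards among those measured, which have none. Capitals mark the core, and each sequence runs 5′ to 3′ on the gene's strand.
Lamp1, chr8:13159061-13159160, plus strand: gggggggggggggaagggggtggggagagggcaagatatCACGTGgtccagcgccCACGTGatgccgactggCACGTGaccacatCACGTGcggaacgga
Mcoln1, chr8:3500357-3500456, plus strand: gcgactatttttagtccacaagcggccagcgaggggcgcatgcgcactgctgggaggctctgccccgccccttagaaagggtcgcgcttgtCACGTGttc
Glb1, chr9:114400976-114401075, plus strand: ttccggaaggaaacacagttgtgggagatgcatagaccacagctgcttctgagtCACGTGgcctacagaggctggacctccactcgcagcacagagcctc
Arsb, chr13:93771530-93771629, plus strand: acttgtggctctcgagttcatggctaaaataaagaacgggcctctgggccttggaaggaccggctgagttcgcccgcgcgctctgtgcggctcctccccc
Gusb, chr5:130003050-130003149, minus strand: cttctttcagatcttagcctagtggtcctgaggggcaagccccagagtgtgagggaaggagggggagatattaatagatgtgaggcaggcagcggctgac

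Lamp1 holds 4 cores, which begin 61, 45, 28 and 15 bases before the start site, and Mcoln1 holds 2, at 71 and 45 bases, of which the first lies in the stretch shown. The cores of Naglu, Glb1 and Sgsh begin 73, 48 and 29 bases before it. The other 4 genes with a core are Gla, Gaa, Atp6v0d1 and Atp6v1a.

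The lysosomal genes did not move as a block. The sugar hydrolase genes Arsb and Gusb were more than 2-fold higher in Repop D5, the 7 membrane protein genes all lay below their CD level by the library total (6 of them with the trimmed-mean scaling described below), and most V-ATPase genes differed by less than 1.5-fold. A gene counts as measured at 10 CPM or more in 1 of the libraries. It is called higher where the ratio of levels reached 1.5, and lower where the inverse ratio did, if the 95% interval also left out 1. The interval is exact and conditional, and covers counting error only. By this rule 32 of 33 genes were measured, of which 3 (9.38%) were higher, 13 (40.6%) were lower and 16 were neither. Over all 8463 measured genes the same rule gave 16.8% higher, 42.1% lower and 58.9% either way, so the share of lower genes is near that of all genes. A ratio below 1 by the library total was found for 24 of the 32 lysosomal genes and for 5611 of all 8463. The median log2 ratio of CPM + 1 was -0.49 for the lysosomal genes and -0.38 for all genes. Outside the clusters of other cell types the counts were again 3 higher and 13 lower, against 17.4% and 40.4% (57.9% either way) of all genes, with 3 and 11 of these genes called the same way as in every cell.

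These values depend on the scaling, since mt- genes (2.13% and 4.93% of UMIs) and ribosomal protein genes (11.8% and 23.6%) took more of the Repop D5 library. Leaving both out of the totals raises each log2 ratio by 0.27, and a trimmed-mean scaling raises it by 0.46. With the trimmed mean 5 genes were higher and 4 lower, the median of all measured genes was 0.08 and that of the lysosomal genes -0.03. No share of all genes called under this scaling was taken to set beside these counts. The 3 higher genes stayed higher under both scalings, and Sgsh, Tpp1, Npc1 and Mcoln1 stayed lower. Glb1 and Gm2a, of the lipid class, were also called higher with the trimmed mean, at ratios of 1.56 and 1.67. The ratios of 7 genes turned above 1 with the trimmed mean: Npc2, Grn, Cd68, Atp6v1a, Atp6v1b2, Atp6v1h and Atp6ap2.

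**Figure D1:**
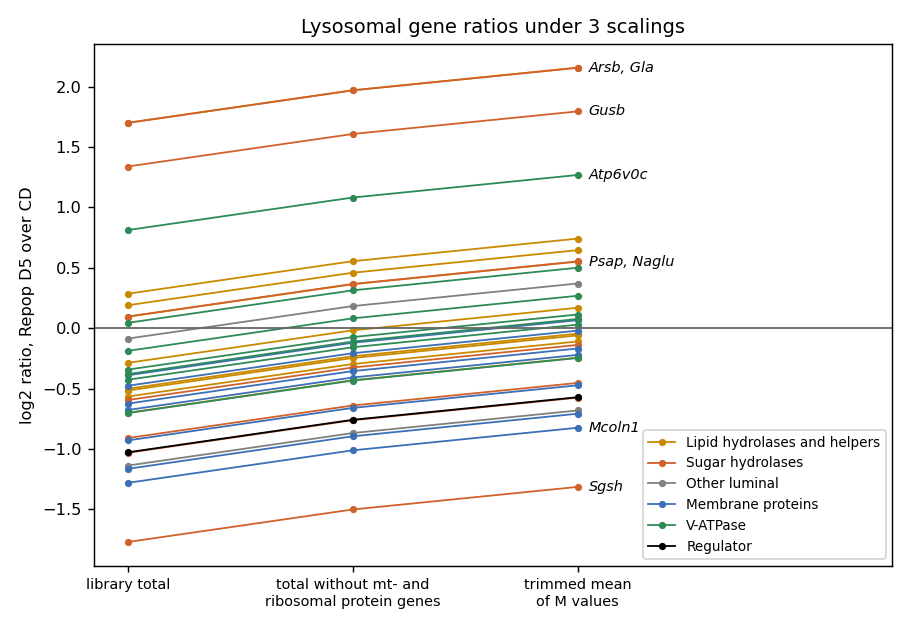
Log2 ratio of CPM, Repop D5 over CD, for each lysosomal gene (lines, coloured by role) under the library total, the total without mt- and ribosomal protein genes, and a trimmed mean of M values. Every line moves up by 0.27 and then to 0.46 in all. Arsb, Gla, Gusb and Atp6v0c stay above 0 throughout and Sgsh and Mcoln1 stay below it.

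Among the sugar hydrolases, which cut glycans and glycosaminoglycans, 2 were higher, 4 lower and 1 neither, against 16.8% higher and 42.1% lower of all genes. Outside the clusters of other cell types 2 were higher, 3 lower and 2 neither, against 17.4% and 40.4%. Arsb, arylsulfatase B, which removes sulfate from dermatan and chondroitin sulfate (chromosome 13, 93771630 to 93943016, mm10), had 180 (CD) and 586 CPM (Repop D5). Repop D5 thus had 3.25 times the CD level (95% interval 3.05 to 3.47). The factor was 3.62 (3.31 to 3.96) outside the clusters of other cell types. Gusb, beta-glucuronidase (chromosome 5, 129989011 to 130003049), had 204 (CD) and 517 CPM (Repop D5), a ratio of 2.53 (2.38 to 2.69). Both were the highest ratios of the measured members and kept this direction in every alternative tried, with ranges of 2.90 to 4.46 for Arsb and 2.37 to 3.47 for Gusb. Arsb overlaps 3 gene models on the other strand, and the strand rule of the counting is not given in the sources used here. Both genes also moved in how many cells held them. After each cell was thinned to 3000 UMIs, an Arsb UMI was found in 35.7% of 599 CD cells (exact 95% interval 31.9 to 39.7). In the 553 Repop D5 cells the share was 78.7% (75 to 82). Without thinning the shares were 59.4% and 97.8%. For Gusb the thinned shares were 45.1% (41.0 to 49.2) and 75.9% (72.2 to 79.5), and the unthinned ones 70.4% and 98%. No cell type of the sort is expected to lack these genes, so no background share was taken, and the part of free RNA was not tested.

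The other sugar hydrolases were mostly lower. Sgsh, which removes sulfate from heparan sulfate, had 14.5 (CD) and 4.26 CPM (Repop D5), on 88 and 47 UMIs, and was 3.41-fold lower (2.37 to 4.97). Naglu, which acts on the same polymer, had 67.0 (CD) and 71.7 CPM (Repop D5), a ratio of 1.07 with an interval of 0.947 to 1.21. Outside the clusters of other cell types its ratio was 0.956 (0.826 to 1.11). For each 100 Sgsh UMIs there were 461 Naglu UMIs in CD and 1683 in Repop D5. Man2b1, lysosomal alpha-mannosidase, had 389 and 190 CPM and was 2.04-fold lower (1.93 to 2.17). Gaa, acid alpha-glucosidase, which digests glycogen, had 55.2 and 29.4 CPM and was 1.88-fold lower (1.61 to 2.20). Neu1, the lysosomal sialidase, had 62.4 and 41.3 CPM and lies close to the threshold at 1.51-fold lower (1.31 to 1.74). It was called in none of the 10 alternatives, with ratios from 0.671 with every deposited barcode to 0.908 with the trimmed mean, and 1.38-fold lower outside the clusters of other cell types. Thus Arsb and Gusb together carried the class: its summed level was 973 (CD) and 1440 CPM (Repop D5). Sugar hydrolase UMIs for each 100 of the lipid class, a ratio that no scaling changes, were 18.7 in CD and 31.0 in Repop D5 with Arsb and Gusb, and 11.3 and 7.25 without them.

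The lipid hydrolases and their helpers held the most RNA of any class, 5205 (CD) and 4650 CPM (Repop D5). Of 8 measured, 0 were higher, 1 was lower and 7 were neither, against 16.8% higher and 42.1% lower of all genes. Outside the clusters of other cell types 0 were higher, 2 lower and 6 neither, against 17.4% and 40.4%. Psap, which encodes the precursor of the saposins that present lipids to hydrolases (chromosome 10, 60277627 to 60302597), was the most abundant lysosomal gene in both libraries. It had 2327 (CD) and 2484 CPM (Repop D5), a ratio of 1.07 (1.05 to 1.09), and made 18.3% and 23.0% of the summed level of the 33 genes. Npc2, the soluble cholesterol carrier, had 941 and 771 CPM and was 1.22-fold lower (1.18 to 1.26) by the library total.

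The enzyme and the activator of ganglioside breakdown differed. Hexa, the alpha subunit of beta-hexosaminidase (chromosome 9, 59539540 to 59565109), had 897 (CD) and 552 CPM (Repop D5), 1.63-fold lower (1.57 to 1.69). Gm2a, the activator protein that hands the ganglioside to this enzyme, had 177 (CD) and 216 CPM (Repop D5), a ratio of 1.22 (1.13 to 1.31). For each 100 Hexa UMIs there were 19.8 Gm2a UMIs in CD and 39.1 in Repop D5, a change of 1.98-fold (95% Wald interval on the log scale 1.83 to 2.15).

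By the library total the other measured lipid enzymes were lower by less than 1.5-fold or close to level. Asah1, acid ceramidase, had 468 and 330 CPM, 1.42-fold lower (1.35 to 1.49). Lipa, lysosomal acid lipase, had 87.4 and 61.1 CPM, 1.43-fold lower (1.27 to 1.61). Ppt1, a palmitoyl-protein thioesterase, had 257 and 173 CPM and was 1.48-fold lower (1.38 to 1.58), which passed the threshold outside the clusters of other cell types at 1.61-fold. Its model overlaps the 3′ end of Cap1 on the other strand. Glb1, beta-galactosidase, had 48.4 and 55.2 CPM, a ratio of 1.14 with an interval of 0.990 to 1.32. Gla, alpha-galactosidase A, was the single member below 10 CPM in both libraries, with 2.15 and 6.98 CPM on 13 and 77 UMIs, a ratio of 3.25 (1.79 to 6.38) that is not counted.

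Of the 2 other luminal proteins, Grn was nearly level and Tpp1 was lower. Grn, which encodes progranulin, a secreted and lysosomal protein lost in a form of dementia, had 1259 (CD) and 1186 CPM (Repop D5), a ratio of 0.942 (0.915 to 0.969). Tpp1, tripeptidyl peptidase, had 233 and 106 CPM and was 2.20-fold lower (2.03 to 2.38).

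**Figure D2:**
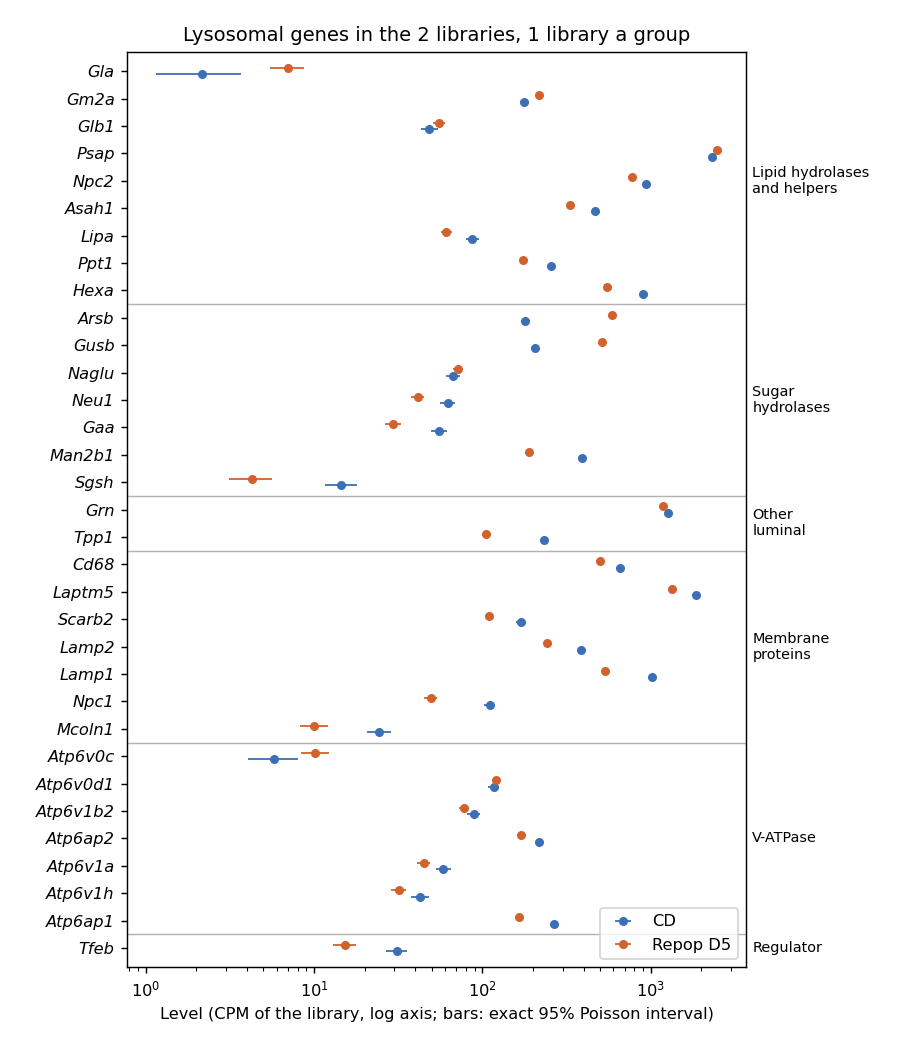
Level of each lysosomal gene in CPM on a log axis, grouped by role, in the CD library (blue) and the Repop D5 library (orange), with exact 95% Poisson intervals. Psap is the highest point in both libraries, and Arsb and Gusb are the genes above 100 CPM whose Repop D5 point lies farthest to the right of the CD point.

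The 7 membrane protein genes all had a ratio below 1, although that of Cd68 turned above 1 with the trimmed mean. Of all 8463 measured genes 5611 had a ratio below 1. By the rule 5 were lower, against 42.1% of all genes, with a median log2 ratio of -0.68 against -0.38 for all genes. With the trimmed mean Npc1 and Mcoln1 were still called lower, while Lamp1, Lamp2 and Scarb2 were not. Lamp1, the major glycoprotein of the lysosomal membrane (chromosome 8, 13159161 to 13175338), had 1017 (CD) and 534 CPM (Repop D5), 1.90-fold lower (1.84 to 1.97). Lamp2, its relative with a part in autophagy, had 385 and 241 CPM and was 1.60-fold lower (1.51 to 1.69). Scarb2, the receptor that carries glucocerebrosidase to the lysosome, had 169 and 110 CPM and was 1.54-fold lower (1.42 to 1.68). It was not called in 8 of 10 alternatives, among them the one outside the clusters of other cell types, at 1.45-fold lower. Npc1, the cholesterol exporter that receives its cargo from Npc2, had 110 and 49.2 CPM and was 2.24-fold lower (2.00 to 2.52). Mcoln1, a calcium channel of the lysosome, had 24.4 and 10.1 CPM and was 2.43-fold lower (1.89 to 3.14). The gene models of Lamp1, Npc1 and Scarb2 overlap genes on the other strand. Across all classes 10 members do, the others being Arsb, Ppt1, Hexa, Grn, Sgsh, Atp6v1b2 and Atp6v1h. On the same strand Glb1 overlaps Tmppe and Arsb overlaps Mir5624. The effect of these overlaps on the counts was not tested.

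Cd68 and Laptm5, both typical of macrophages, were lower by less than 1.5-fold over every cell. Laptm5, a membrane protein of immune cell lysosomes, had 1852 (CD) and 1331 CPM (Repop D5), 1.39-fold lower (1.36 to 1.43). Cd68, a heavily glycosylated protein used to mark phagocytes, had 657 and 501 CPM, 1.31-fold lower (1.26 to 1.37). Outside the clusters of other cell types Laptm5 was called, at 1.55-fold lower (1.5 to 1.59), and Cd68 was 1.49-fold lower (1.41 to 1.56). Cluster 4, border macrophage-like, which only the CD library had, held 1707 CPM of Laptm5 and 614 CPM of Cd68. Its levels lay below those of the CD clusters 0, 3 and 7, which ran from 1787 to 2216 CPM for Laptm5 and from 679 to 852 CPM for Cd68. Cluster 4 had 3121 CPM of border macrophage markers, against 655 to 1091 CPM in those CD clusters. Its microglia markers, at 26509 CPM, lay near their 28231 to 30344 CPM. It also had deep cells (median 17119 UMIs), and no doublets were removed. Whether cluster 4 is a single cell type was not tested.

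The order of the classes by summed UMIs does not rest on the scaling when their UMIs are set against each other within a library. For each 100 UMIs of the membrane proteins there were 147 hydrolase UMIs in CD and 219 in Repop D5, both classes with helpers. This was a change of 1.5-fold (Wald 1.47 to 1.53). The helpers Psap, Npc2 and Gm2a, which are not enzymes, held 14090, 5697 and 1074 of 37414 such UMIs in CD. In Repop D5 they held 27422, 8507 and 2385 of 67220. No change was computed for the enzymes alone. Without Psap the 1.5-fold change became 1.42-fold, and without Arsb and Gusb it became 1.31-fold (1.28 to 1.34). Arsb and Gusb held 1092 and 1238 of the hydrolase UMIs in CD and 6465 and 5706 in Repop D5. Psap, Arsb and Gusb were not left out together, so the change is not shown apart from these genes. The V-ATPase had 18.9 UMIs for each 100 of the membrane proteins in CD and 22.3 in Repop D5, a change of 1.18-fold (1.14 to 1.23). Outside the clusters of other cell types the first and the last of these were 1.58-fold and 1.33-fold. For each 100 hydrolase UMIs there were 12.9 V-ATPase UMIs in CD and 10.2 in Repop D5, a change of 0.79-fold (0.76 to 0.821). By the median log2 ratio of single genes the order of these classes was the reverse, -0.50 for hydrolases and -0.34 for the V-ATPase. These intervals cover counting error in 2 libraries and say nothing of the spread between mice.

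**Figure D3:**
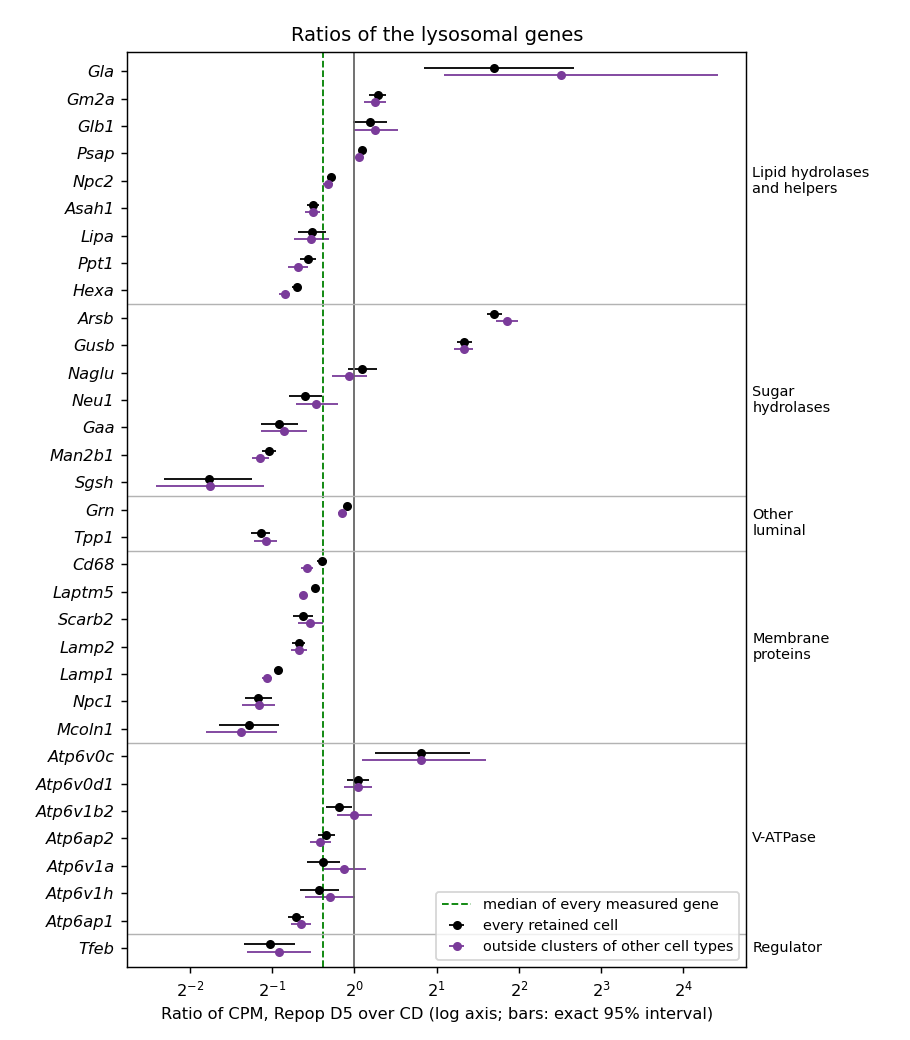
Ratio of CPM, Repop D5 over CD, on a log axis for each lysosomal gene with its exact 95% interval, over every retained cell (black) and outside the clusters of other cell types (purple). The solid line marks a ratio of 1 and the dashed line the median of every measured gene, a log2 ratio of -0.38. By this library-total scaling all 7 membrane protein genes lie left of the solid line (Cd68 moves to its right with the trimmed mean), and the V-ATPase genes lie on both sides of it.

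The V-ATPase genes were mostly near level. Of 7, 1 was higher, 1 lower and 5 neither, against 16.8% higher and 42.1% lower of all genes. Their median log2 ratio was -0.34, which was -0.12 outside the clusters of other cell types and 0.11 with the trimmed mean. Atp6v0d1, of the membrane sector, had 117 (CD) and 121 CPM (Repop D5), a ratio of 1.03 (0.940 to 1.13). The 3 genes of the sector that splits ATP also lay within 1.5-fold. Atp6v1a, the catalytic subunit, had 58.6 and 45.0 CPM, 1.30-fold lower (1.13 to 1.49), Atp6v1b2 had 88.7 and 77.8 CPM, and Atp6v1h, a regulatory subunit, had 42.8 and 31.8 CPM. Outside the clusters of other cell types Atp6v1a had a ratio of 0.916 (0.760 to 1.11) and Atp6v1b2 of 1.00 (0.867 to 1.16).

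Of the accessory subunits 1 was called lower. Atp6ap1, needed to assemble the pump, had 267 (CD) and 164 CPM (Repop D5), 1.63-fold lower (1.52 to 1.74). Atp6ap2, also known as the prorenin receptor, had 216 and 170 CPM, 1.27-fold lower (1.18 to 1.36). Atp6v0c, the proton-carrying ring subunit, was called higher with 5.78 and 10.1 CPM on 35 and 112 UMIs, a ratio of 1.76 (1.19 to 2.65). It lies at the minimum level and has 2 named pseudogenes in GENCODE, so reads can be lost or split between copies and its level is uncertain. It was not called in 6 of 10 alternatives.

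Tfeb, the transcription factor of the set, had 31.0 (CD) and 15.2 CPM (Repop D5), on 188 and 168 UMIs, 2.04-fold lower (1.65 to 2.53). After thinning, the share of cells with a Tfeb UMI was 9.68% in CD (7.43 to 12.3) and 3.98% in Repop D5 (2.51 to 5.96), and in 24.5% and 23.3% without thinning. The RNA of this factor says nothing of its place in the cell, which is how the protein is mainly controlled. Among members with a promoter entry, the 8 measured ones with the E-box core had ratios from 0.293 (Sgsh) to 1.14 (Glb1), with 4 lower and 0 higher and a median log2 ratio of -0.63. The 20 without it had 8 lower and 3 higher, from 0.454 (Tpp1) to 3.25 (Arsb), with a median of -0.49. Of all measured genes 42.1% were lower and 16.8% higher, and a tie between the core and the direction was not tested. Both sets held ratios from 0.454 to 1.14, and each also reached beyond this range.

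Per cell the picture includes depth. The mean cell had 9944 UMIs in CD and 19960 in Repop D5, and of these 126 and 215 came from the 33 genes, a ratio of 1.70 against 2.01 for all UMIs. In UMIs per cell 27 genes were higher and 6 lower in Repop D5, and no share of all genes was taken for this measure. The 6 were Sgsh (0.144 and 0.0850 UMIs a cell), Mcoln1, Npc1, Tpp1, Man2b1 and Tfeb. More RNA in a cell and better capture cannot be told apart here. The 33 genes gave the median cell 1.29% of its UMIs in CD, with quartiles of 1.16% and 1.45%, and 1.07% in Repop D5, with quartiles of 0.912% and 1.29%. Membrane proteins made a median of 0.431% in CD (quartiles 0.363% and 0.513%) and 0.276% in Repop D5 (0.220% and 0.343%). By all UMIs of a cell these middle ranges did not overlap. Sugar hydrolases went the other way, from 0.0910% in CD (quartiles 0.0622% and 0.122%) to 0.138% in Repop D5 (0.110% and 0.172%). V-ATPase genes had 0.0752% and 0.0615%. The quartile ranges of the 2 libraries overlapped for sugar hydrolases and for V-ATPase genes. All these shares include mt- and ribosomal protein UMIs in the total and were not recomputed without them. The gap between the middle ranges of the membrane proteins is narrower than the log2 shift of 0.27 given above. Cells are not replicates, and the shares are a description.

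**Figure D4:**
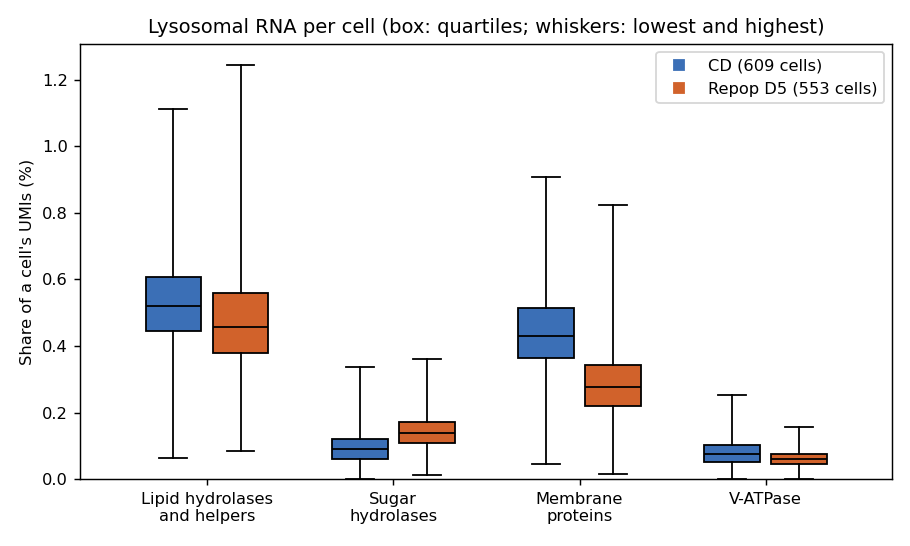
Share of a cell's UMIs (percent) from each class in 609 CD cells (blue) and 553 Repop D5 cells (orange), with boxes for quartiles and median and whiskers to the lowest and highest cell. The membrane protein boxes do not overlap (0.363% to 0.513% in CD, 0.220% to 0.343% in Repop D5). The boxes of the lipid hydrolases and helpers, the sugar hydrolases and the V-ATPase do. Shares are of all UMIs of a cell, with mt- and ribosomal protein genes included.

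Within each library the cells fell into clusters, and the lysosomal level differed among them. Clusters are compared by number. No cluster had a microglia marker among its leading genes, and cluster 3 had 1 astrocyte marker there. In cluster 3, 10 microglia markers reached 50 CPM. The same number did so in clusters 4 and 9 and 9 did in cluster 5, which are named for other types. This count thus does not set cluster 3 apart. The values outside the clusters of other cell types pool all clusters named microglia-like, which are kept apart here. The 3 CD clusters of that name (0, 3 and 7) had between 12869 and 13951 CPM of the 33 genes together. The 5 of Repop D5 (1, 2, 6, 8 and 10) ran from 9966 CPM in cluster 2, led by mitotic genes and with the deepest cells (median 23088 UMIs), to 13404 CPM in cluster 6, with the shallowest (9621 UMIs). Cluster 6 also had the most ribosomal protein RNA of the 5, 26.8% of its UMIs. Depth moves with this order, and its part was not tested. Psap ran from 2285 CPM in cluster 2 to 3277 CPM in cluster 6, and Grn from 1053 CPM in cluster 2 to 1713 CPM in cluster 10, which is led by interferon response genes.

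Some genes separated the libraries cluster by cluster. Of 32 measured members, 3 (Arsb, Gusb and Gm2a) were higher in each of the Repop D5 clusters 1, 2, 6, 8 and 10 than in each of the CD clusters 0, 3 and 7, and 15 were lower in each, against 14.5% and 31.7% of all measured genes. Arsb had 123 to 196 CPM in the CD clusters and 586 to 653 CPM in those of Repop D5, and Gusb had 209 to 215 and 428 to 570 CPM. Lamp1 had 1000.4 to 1174 CPM and 481 to 673 CPM. The summed membrane proteins had at least 4052 CPM in the CD clusters and at most 3496 CPM in those of Repop D5. All these levels are by the total UMIs of a cluster. Ribosomal protein genes took 10.8% to 14.1% of UMIs in the CD clusters and 23.1% to 26.8% in those of Repop D5. The gap in the summed membrane proteins is narrower than the log2 shift of 0.27 given above. The orders were not recomputed under the other scalings. Gm2a had 171 to 176 CPM and 176 to 365 CPM, so its lowest Repop D5 cluster met the highest CD one, and it is among the 10 leading genes of cluster 6. Clusters of 1 library are not replicates, and none of these 8 held over 20 cells of both libraries. Psap, Grn, Npc2 and 4 V-ATPase genes were among the 14 that overlapped.

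**Figure D5:**
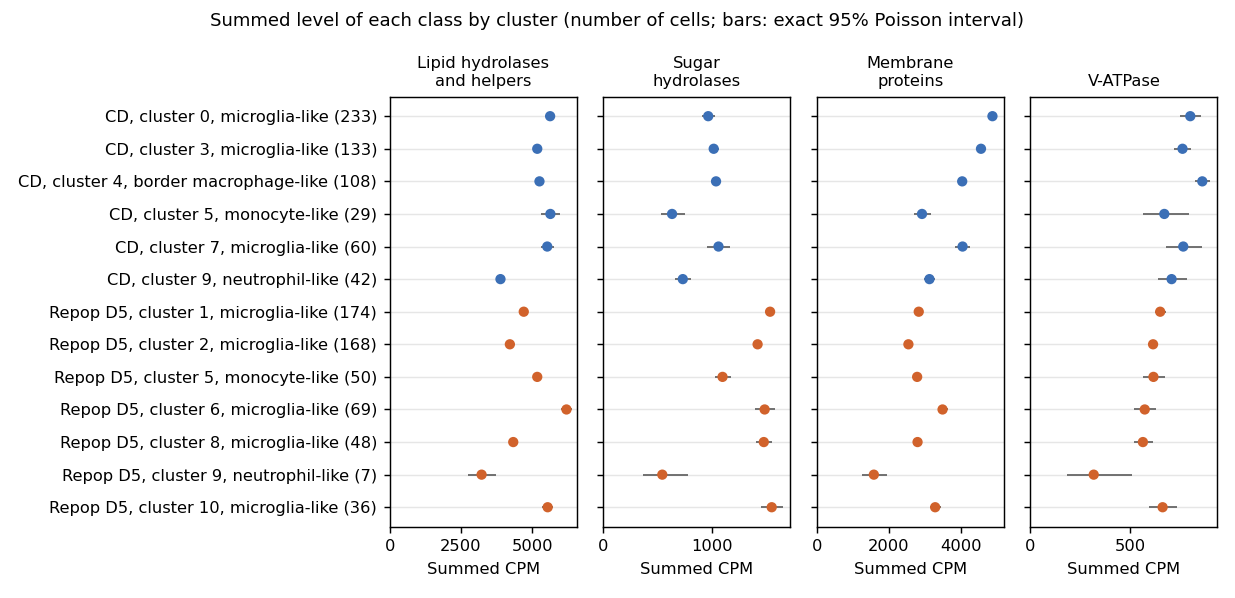
Summed CPM of 4 classes in each cluster of each library with exact 95% Poisson intervals and the number of cells in brackets, CD in blue and Repop D5 in orange. Membrane proteins lie at 4052 CPM or more in CD clusters 0, 3 and 7 and at 3496 CPM or less in Repop D5 clusters 1, 2, 6, 8 and 10, where sugar hydrolases lie higher. Levels are by the cluster total, with mt- and ribosomal protein genes included.

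Other genes of the pathway were taken from 5 wider lists, to be read against the 16.8% higher and 42.1% lower of all genes. Of 29 measured hydrolases and associated genes, 2 were higher and 16 lower; their median was -0.69 on the log2 scale. Outside the clusters of other cell types 2 of 27 were higher and 14 lower. This list also holds Sgpl1, an enzyme of the endoplasmic reticulum. Galns, a sulfatase of keratan and chondroitin sulfate, was higher like Arsb, at 7.10 and 26.4 CPM (ratio 3.71, 2.69 to 5.24), and Scpep1, a serine carboxypeptidase, had 42.9 and 70.7 CPM. Idua, which acts on heparan and dermatan sulfate, was 4.73-fold lower (3.48 to 6.50) and Pla2g15, a lysosomal phospholipase, 4.18-fold lower (3.83 to 4.56). Among the most abundant was Rnaset2a, a ribonuclease with a near-identical copy that makes its count uncertain, at 670 and 338 CPM.

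Of 27 measured membrane proteins and transporters, 2 were higher and 18 lower, with a median of -0.84, and 1 and 19 outside the clusters of other cell types. Cd63, a tetraspanin, had 633 and 135 CPM, 4.67-fold lower (4.40 to 4.97), and Laptm4b and Laptm4a, relatives of Laptm5, were 3.89-fold and 1.78-fold lower. Slc11a1, a metal transporter of phagosomes, had 134 and 239 CPM (ratio 1.78, 1.65 to 1.93), and Tpcn2, a cation channel, 8.09 and 13 CPM, with a ratio of 1.34 outside the clusters of other cell types.

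The rest of the V-ATPase also had few calls, with 0 of 10 measured genes higher, 3 lower (2 outside the clusters of other cell types) and a median of -0.26. Atp6v0b and Tcirg1, both of the membrane sector, were 1.90-fold (1.83 to 1.98) and 1.95-fold (1.76 to 2.16) lower. Atp6v0e had 284 and 358 CPM, Atp6v1f 290 and 327 CPM and Atp6v1g1 395 and 300 CPM, none of them called. Of 16 measured sorting genes 1 was higher and 6 lower. Gnptab, whose product starts the mannose 6-phosphate tag, was higher at 9.08 and 27.0 CPM (ratio 2.97, 2.22 to 4.04), while M6pr, a receptor of that tag, had 183 and 186 CPM and Lrp1 260 and 236 CPM. Ap1b1 and Vps18, of vesicle coats and tethers, were 2.61-fold and 2.44-fold lower.

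Of 19 measured genes around Tfeb and the mTOR complex at the lysosome, 1 was higher and 10 lower (9 outside the clusters of other cell types), with a median of -0.55. Mitf, a relative of Tfeb, had 49.9 and 9.42 CPM and was 5.29-fold lower (4.22 to 6.68), and Fnip2 was 3.35-fold lower. Lamtor2, part of the scaffold that holds mTOR on the lysosome, was higher at 120 and 188 CPM (ratio 1.56, 1.44 to 1.70), while Lamtor1 had 148 and 193 CPM and Lamtor4 234 and 300 CPM, neither of them called.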

How the data were processed

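The authors deposited unnormalized counts, in UMIs of each gene in each barcode. Reads were processed with Cell Ranger 2.1.0 on mm10, per the submitters' processing notes. The annotation release, the cell-calling rule and the strand rule are not given in the sources used here. The authors' pooled matrix was not used. Cells with at least 500 genes and under 10% mt- UMIs were kept, and no doublets were removed. UMIs were summed per library and scaled to CPM; ratios have exact conditional binomial 95% intervals, checked on simulated data, and a pseudocount of 1 CPM enters the medians only. Cells of both libraries were clustered with scanpy 1.11.5 in Python 3.11.15 (2000 variable genes, 30 components, 15 neighbours, Leiden resolution 1, leidenalg 0.10.2). A cluster with 3 or more markers of another type among its 10 leading genes (50 CPM, 25% of its cells) took that name. Others with at most 1 such marker were named microglia-like if 3 microglia markers reached 50 CPM. Shares of cells are medians of 20 thinning draws with Clopper-Pearson intervals. Coordinates are from GENCODE M21, where 33 of 33 identifiers were found. All members were named, and of each wider list the 2 highest, 2 lowest and 2 most abundant genes. One gene that this rule names is not reported here. Members and lists were chosen with earlier results of these data known.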

Additional observations from a re-analysis of the deposited data

How the results depend on the processing

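Each group is 1 library, so every interval covers counting error only. The counts of higher and lower genes in this paragraph have no share of all genes beside them. With the trimmed-mean scaling, 5 genes were higher and 4 lower. The median log2 ratios were -0.033 for the members, -0.046 for hydrolases with helpers, -0.22 for membrane proteins and 0.11 for the V-ATPase, which turned its direction. With totals free of mt- and ribosomal protein genes, 8 were lower, and the medians were -0.22, -0.23, -0.41 and -0.074. A ratio of 2 left 6 lower genes. The hydrolase median was -0.39 with a minimum of 50 CPM and with none, and -0.27 in thinned cells, where that of membrane proteins was -0.51. Equal weight per cell gave -0.56 for membrane proteins. The V-ATPase median was -0.12 outside the clusters of other cell types. It was -0.21 without the border macrophage-like cluster alone and -0.10 with clusters at a resolution of 0.5, where that of hydrolases was -0.36; both were chosen after seeing the data. No called member turned its direction in any of the 10 alternatives recomputed for single genes. The alternative with the authors' pooled matrix was not run, because its barcode endings match no sample label. No paired analysis was possible because each group is 1 library. The depth limits Gla, Sgsh, Atp6v0c and Mcoln1 most, the members with the fewest UMIs.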

Other observations

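The filter dropped 32 Repop D5 barcodes, which had a median of 14.1% mt- UMIs and 6689 UMIs. The lysosomal genes made a median of 1.13% of their UMIs, from 0.563% to 2.37%, against 1.07% in the retained Repop D5 cells. Lamp2, Gla, Atp6ap1 and Atp6ap2 are on the X chromosome. Xist had 0 UMIs in CD, which allows up to 0.495 CPM, and 0.0906 CPM in Repop D5, while the Y-linked gene Ddx3y had 107 and 41.0 CPM, so RNA of male cells was found in both pools.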
